A study of Mus musculus with 6 samples.

Results

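Collagens, laminins, nidogens, perlecan, agrin, fibronectin, SPARC and periostin build the extracellular matrix around islet cells and vessels. Their genes were taken by name from the probes of a mouse expression array, as every gene name that begins with a collagen or laminin chain symbol, together with Nid1, Nid2, Hspg2, Agrn, Fn1, Sparc and Postn. This gave 59 gene names, on 85 probes, of 31829 gene names on the array, and 50 of the 59 could be tested. Col4a3bp matched by its letters alone, since it encodes a ceramide transfer protein (now Cert1), so 58 matrix genes remained, 49 of them tested. The members were picked by name, but the list was proposed with earlier results of these data known.

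RNA came from islets, the endocrine clusters of the pancreas, of male mice aged 6 weeks. Control mice were Nkx6.1fl/+;Pdx1-CreERTM and mutant mice were Nkx6.1fl/-;Pdx1-CreERTM littermates, with 3 samples in each group (A, B and C). Both groups therefore carried a floxed Nkx6.1 allele and the tamoxifen-dependent Cre, and both were given tamoxifen at 2 mg per 25 g of body weight in corn oil, in 4 injections from 4 weeks of age onward. The mutants differed by the - allele in place of the + allele. Their background combined the Nkx6.1-flox strain (mixed FVB/N x C57Bl/6J) with the Pdx1-CreERTM strain (mixed Cd1 X C57Bl/6J). The Pdx1 promoter that drives Cre is known from pancreatic epithelium, islet cells included, and not from fibroblasts or vessels. Each sample pooled RNA of islets from 2 pancreata of the same genotype. In such bulk RNA, fewer cells of a type and less RNA per cell cannot be told apart.

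Basement membranes are thin sheets in which a collagen IV network and a laminin network are joined by nidogens and by the heparan sulfate proteoglycans perlecan and agrin. In islets the capillaries supply much of this sheet, and beta cells bind it through integrins. The fibrillar collagens I, III and V and collagen VI lie in the looser matrix between cells and are made chiefly by fibroblasts, stellate cells and pericytes.

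The sequences below are those behind the largest difference among the members. Col8a2, which encodes the alpha 2 chain of the short-chain network collagen VIII, had 2 probes on the plus strand of chromosome 4 (mm9), whose starts lay 1963 bases apart. The upstream probe lay at chr4:125989478-125989537 and the downstream probe at chr4:125991441-125991500. Col11a2, the alpha 2 chain of the fibrillar collagen XI, had a single probe at chr17:34203113-34203172 on the plus strand. The first 30 of the 60 bases of each probe are given because the Col8a2 probes disagreed, and they show which stretch each signal came from. Exon annotation of mm9 was not used here.
Col8a2 upstream probe: atggtctctactccaccgagtacatccatt
Col8a2 downstream probe: acttaccacatatcacatatcaggttcagg
Col11a2 probe: aaagaagataaagagagaaatgccaaaaat

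The bases before the start sites of Col8a2 and Col8a1 are given for comparison, because the partner chain genes of collagen VIII differed in their signals. They are RefSeq sequences on GRCm38.p6, for Col8a2 chr4:126286544-126286793 on the plus strand and for Col8a1 chr16:57754738-57754987 on the minus strand. Capitals mark GC boxes, the letters GGGCGG or, on the other strand, CCGCCC, with overlapping matches counted.
Col8a2: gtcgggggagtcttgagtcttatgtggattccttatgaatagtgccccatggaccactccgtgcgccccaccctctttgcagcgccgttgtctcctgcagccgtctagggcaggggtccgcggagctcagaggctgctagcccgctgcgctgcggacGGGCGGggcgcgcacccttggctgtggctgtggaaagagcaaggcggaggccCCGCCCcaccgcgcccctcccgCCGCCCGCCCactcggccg
Col8a1: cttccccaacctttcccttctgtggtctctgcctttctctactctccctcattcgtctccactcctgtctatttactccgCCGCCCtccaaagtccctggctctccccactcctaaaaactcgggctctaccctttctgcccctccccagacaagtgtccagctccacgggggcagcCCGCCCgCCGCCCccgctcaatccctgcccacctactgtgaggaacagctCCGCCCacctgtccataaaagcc

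Each of these windows of 250 bases held 4 GC boxes, a number reached by 4.09% of the 32851 mouse promoters searched. Nkx6.1 is a homeodomain protein, and neither window held TTAAT or its reverse complement ATTAA, letters common in homeodomain sites. Promoters were at hand for 38 of the 50 tested gene names, 44 promoters in all. Of these, 7 (15.9%) held TTAAT or ATTAA, against 24.9% of all promoters, and 26 (59.1%) held a GC box, against 32.7% of all. The 7 belonged to Agrn, Col28a1, Col3a1, Col4a4, Lama2, Postn and Sparc. The window of Col11a2 held 2 GC boxes and no TTAAT or ATTAA, but 2 copies of the palindrome TAATTA, which was added to the search after that window had been read. TAATTA occurred in 4.8% of all promoters and in no other member promoter. A match describes the letters of a window and says nothing about binding.

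The arrays were judged first, and array values are given below in the order A, B, C. The software called between 63.9% and 76.3% of probes well above background on each array. The shares were 73.4%, 75.6% and 76.3% in controls and 66.8%, 63.9% and 74.4% in mutants, so mutants A and B had the lowest. The signal of Nkx6-1 itself, as log2 signal minus the array's 75th percentile, the scale used for all values here, was 4.79, 4.85 and 4.64 in controls and 4.32, 4.06 and 4.45 in mutants. All mutant arrays lay lower, by 0.48 (standard error of the fitted difference, SE, 0.14, limma adjusted p = 0.131). All 8 beta cell markers on the list used were tested, and 2 were called, both lower, Slc2a2 by -2.01 (adjusted p = 0.0415) and Ucn3 by -1.24 (adjusted p = 0.0236). The mutant arrays were all lower for 5 of the 8, the median difference was -0.58, and Ins1, Ins2 and Iapp had slightly higher means in mutants. Their summed linear level, in units of each array's 75th percentile, was 678.5 to 956.9 in controls and 619.4 to 1031 in mutants. Whether the Nkx6-1 probe lies in the deleted part is not given in the sources used here. Slide 1 held control A with mutants B and C, and slide 2 held controls B and C with mutant A. A value within slide 1 thus rests on control A alone as its control, and a value within slide 2 on mutant A alone as its mutant. Across all 22775 genes tested, 2.53% were called at a limma adjusted p under 0.05, 1.41% higher and 1.12% lower in mutants.

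Among the 49 matrix genes tested, 2 were called, both higher in mutants, Col8a2 and Col11a2, and none was called lower. That is 4.08% of the members against 2.53% of all genes, and 7 members (14.3%) had an unadjusted p under 0.05, against 20.2% of all genes. The 3 mutant arrays lay wholly apart from the 3 control arrays for 9 of the 49 (18.4%), against 26.3% of all genes. For 6 of these the mutants were all higher (among them Col8a2, Col11a2, Col27a1, Col28a1 and Col5a3; 12.3% of all genes), and for 3 all lower (Col4a1, Lama3 and Col4a4; 14% of all genes). The median difference, mutant minus control, was 0.21 over the 49 members and -0.03 over all genes. The members' median was -0.24 within slide 1 and 0.35 within slide 2. The share with arrays apart thus lay below that of the whole array, the share called rests on 2 genes, and the direction of the members' median depended on the slide.

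**Figure D1:**
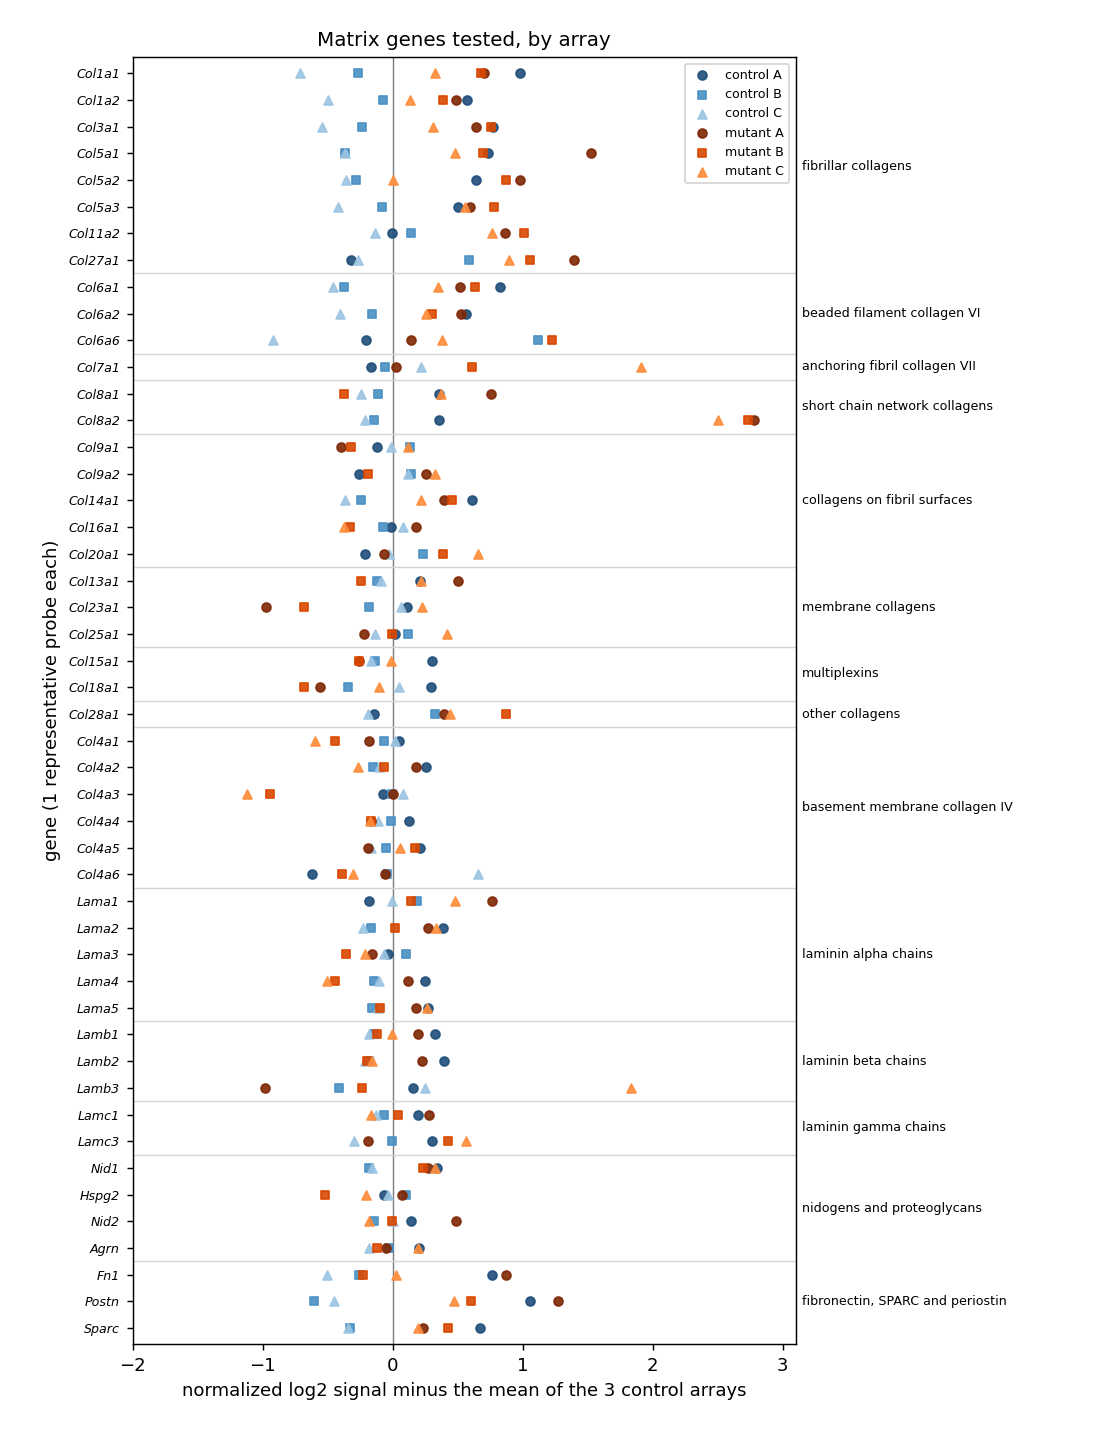
Normalized log2 signal of the matrix genes tested, 1 of them left out, on each of the 6 arrays, as the difference from the mean of the 3 control arrays; genes are grouped by role and each has 1 representative probe. Col8a2 has its 3 mutant arrays far to the right of its controls. For many of the fibrillar collagens, and for Fn1, Postn and Sparc, control A lies on the side of the mutants, away from controls B and C.

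Col8a2 was the member with the largest difference. Collagen VIII is a network collagen of the subendothelial matrix and of the corneal Descemet membrane. The downstream probe of Col8a2, whose sequence is given above and which was the brighter, read -4.00, -4.50 and -4.57 in controls and -1.57, -1.62 and -1.85 in mutants. Every mutant array lay far above every control array. The difference was 2.67 (SE 0.18), a 6.37-fold higher signal, with a limma adjusted p of 0.00682, and the slides gave 2.26 and 2.96. A slide block gave 2.61 (adjusted p = 0.0157). The upstream probe did not show it. That probe read -5.37, -5.45 and -4.35 in controls and -5.12, -5.50 and -5.21 in mutants, so the groups overlapped and the difference was -0.22. It was well above background on 3 control and 2 mutant arrays. None of the spots of these Col8a2 and Col11a2 probes was flagged as an outlier. The mean of both Col8a2 probes differed by 1.23 (adjusted p = 0.0258). The rise was thus seen with the downstream probe only, and which transcript carries its stretch was not tested. Col8a1, the partner chain, read -5.69, -6.16 and -6.30 in controls and -5.29, -6.43 and -5.68 in mutants, with groups that overlapped and a difference of 0.25 (SE 0.32, adjusted p = 0.689). It was well above background on 2 of the mutant arrays only.

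Col11a2 was the other called member. Collagen XI sets the diameter of fibrils and is best known from cartilage and the inner ear. Its probe read -4.22, -4.07 and -4.35 in controls and -3.35, -3.20 and -3.45 in mutants. The groups did not overlap, and the spread within each was small (SD 0.14 and 0.13). The difference was 0.88 (SE 0.12, limma adjusted p = 0.0323), with nearly the same size within both slides, 0.89 and 0.86. Both calls depended on single arrays. Col11a2 lost its call when any 1 of the 6 arrays was left out (adjusted p between 0.0581 and 0.146). Col8a2 lost its call without control B (adjusted p = 0.0610) and without mutant B (0.0503), where 13 and 20 genes in all were called instead of 576, while its difference remained 2.60 and 2.64.

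**Figure D2:**
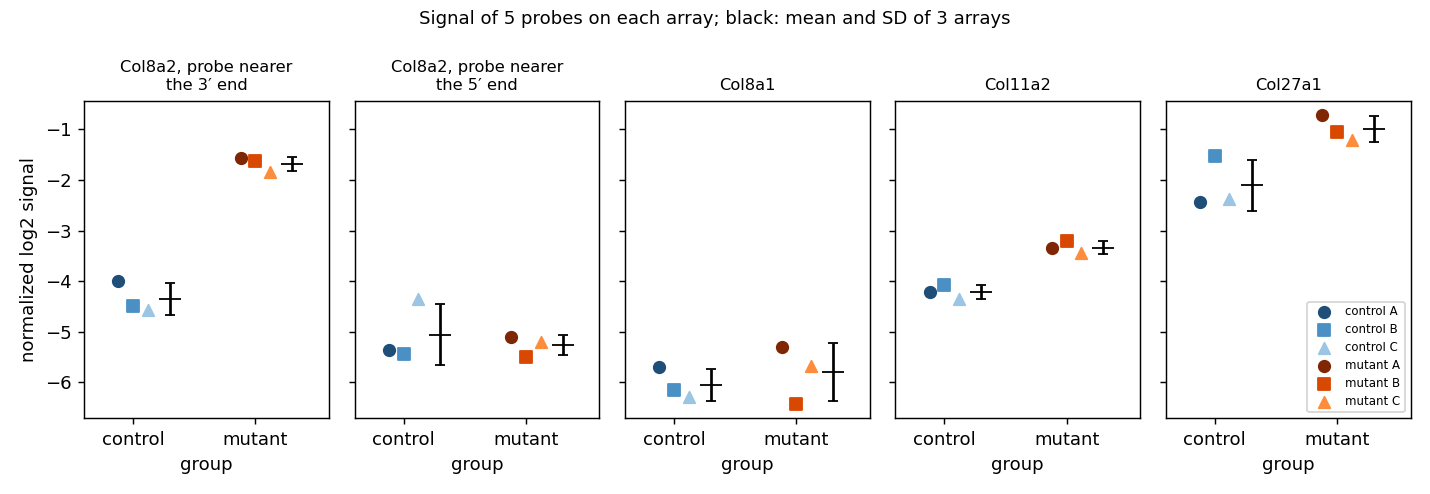
Normalized log2 signal of 5 probes on each array, with the mean and SD of the 3 arrays of each group in black. The downstream probe of Col8a2 (labelled nearer the 3′ end) and the Col11a2 and Col27a1 probes have groups that do not overlap, while the upstream probe of Col8a2 and the probe of Col8a1 have groups that do. Levels of different probes cannot be compared.

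Of the 11 fibrillar collagen genes on the array, 8 were tested. All 8 had a higher mean in mutants, as did 46.6% of all genes, and only Col11a2 was called. Their median difference was 0.63, but it was -0.17 within slide 1 and 1.11 within slide 2, and 5 of the 8 were lower within slide 1. Col27a1, a fibrillar collagen of developing cartilage, read -2.43, -1.52 and -2.37 in controls and -0.71, -1.05 and -1.21 in mutants. The mutant arrays were all higher, and the difference of 1.12 (SE 0.28) was alike within the slides, at 1.30 and 1.23, but the limma adjusted p was 0.103. Col5a3, a minor chain of collagen V, read -2.82, -3.41 and -3.75 in controls and -2.72, -2.54 and -2.77 in mutants. The groups lay just apart, with control A close below the lowest mutant array, and the difference was 0.64 (SE 0.24, adjusted p = 0.217).

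The chains of collagens I, III and V that fill most interstitial fibrils had another pattern. Col1a1 read 0.36, -0.89 and -1.33 in controls and 0.08, 0.06 and -0.30 in mutants. Control A was the highest of the 6 arrays, above every mutant, whereas controls B and C were the lowest. The mean difference of 0.57 (SE 0.43, adjusted p = 0.501) was smaller than the control SD of 0.88. Col1a2, the other chain of collagen I, read 2.17, 1.53 and 1.10 in controls and 2.09, 1.99 and 1.73 in mutants. Col3a1, the chain of collagen III, read 1.04, 0.03 and -0.28 in controls and 0.91, 1.02 and 0.58 in mutants. Control A was again the highest array for both, and their differences were 0.34 (SE 0.28) and 0.57 (SE 0.35). Col5a1, the main chain of collagen V, which starts fibril assembly, read -3.97, -5.07 and -5.07 in controls and -3.18, -4.01 and -4.23 in mutants. Here control A lay above mutants B and C, and the difference was 0.90 (SE 0.40, adjusted p = 0.285). Col5a2 likewise had control A above the other controls, and a difference of 0.62 (SE 0.37).

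Collagen VI forms beaded filaments near cell surfaces. Col6a1 read -0.34, -1.54 and -1.63 in controls and -0.65, -0.53 and -0.82 in mutants, and Col6a2 read -2.34, -3.07 and -3.32 in controls and -2.39, -2.61 and -2.65 in mutants. For both chains control A was the highest array and controls B and C were the lowest. The differences were 0.50 (SE 0.35) for Col6a1 and 0.36 (SE 0.26) for Col6a2, with adjusted p values of 0.473 and 0.481. Without control A, Col6a1 was called (adjusted p = 0.0485), and the members with an unadjusted p under 0.05 went from 7 to 17 of 49, while those of all genes went from 4600 to 5994 of 22775. Col6a6, a longer chain of the same collagen, did not share this order, with controls from -4.53 to -2.50 and mutants from -3.48 to -2.39.

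SPARC, a secreted collagen-binding glycoprotein, fibronectin and periostin, an adhesion protein of fibroblasts, followed the interstitial collagens. Sparc read 6.20, 5.20 and 5.19 in controls and 5.77, 5.96 and 5.72 in mutants. Fn1 read -1.11, -2.13 and -2.38 in controls and -0.995, -2.10 and -1.84 in mutants. Postn read -1.93, -3.60 and -3.44 in controls and -1.71, -2.38 and -2.52 in mutants. In all 3 genes control A was well above controls B and C and the groups overlapped, and for Fn1 mutants B and C lay near the low controls. The differences were 0.29 (SE 0.29) for Sparc, 0.22 (SE 0.43) for Fn1 and 0.78 (SE 0.48) for Postn, and none was called. The other tested Sparc probe differed by 0.28.

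Within the slides these genes moved in opposite directions. Fn1 differed by -0.87 within slide 1 and by 1.26 within slide 2, Postn by -0.52 and 1.80, Col1a1 by -0.48 and 1.20, and Col5a1 by -0.15 and 1.89. Of the 49 members, 25 (51.0%) were lower in mutants within slide 1 and higher within slide 2, against 17.3% of all genes. Signs were opposite in either order for 65.3% of the members, against 37.4% of all genes. With slide as a block, 2.94% of all genes were called, and among the members again 2, Col8a2 and Col11a2. Because each slide has only 1 array of a group, the slide and the single array cannot be told apart.

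**Figure D3:**
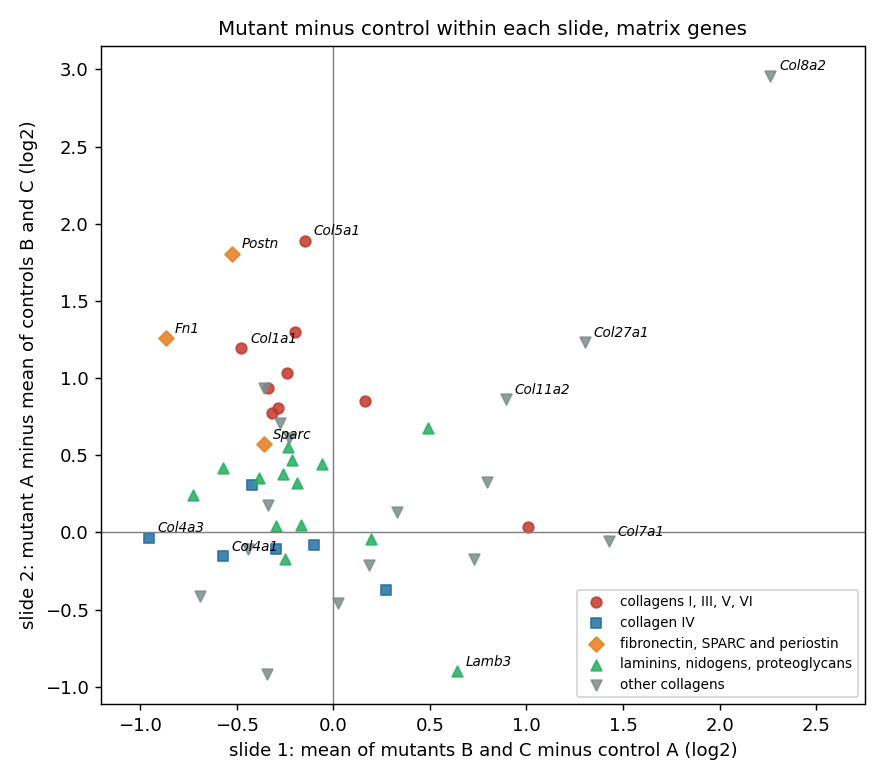
Mutant minus control difference (log2) of the matrix genes tested, 1 of them left out, within slide 1 (x axis, mutants B and C against control A) and slide 2 (y axis, mutant A against controls B and C). Most collagens I, III, V and VI and all of Fn1, Postn and Sparc lie at the upper left, below 0 in slide 1 and above 0 in slide 2; Col8a2, Col27a1 and Col11a2 lie above 0 in both.

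Control A was the highest of the 3 controls for 33 of the 49 members (67.3%), against 39.4% of all genes. It was the highest of all 6 arrays for 20 of the 49 members, against 3677 of all 22775 genes. A mean was taken over Col1a1, Col1a2, Col3a1, Col5a1, Col5a2, Col6a1 and Col6a2, each set against its control mean. It was 0.73, -0.25 and -0.48 in controls and 0.77, 0.62 and 0.27 in mutants. Control A was the highest control for all 7 of these genes. The tested chains Col5a3 and Col6a6 were left out of this mean, and for Col6a6 control B was the highest control. A list of 15 markers of mesenchyme, stellate cells and pericytes that holds no collagen or laminin moved in part with that collagen mean. Of its 14 tested genes, none was called and none had an unadjusted p under 0.05. Within slide 1, 10 of them were lower in mutants and within slide 2 higher. Control A was the highest control for 11 of the 14, but the lowest control for Tagln and Cspg4. The list's mean was 0.43, -0.08 and -0.35 in controls and 0.18, 0.20 and 0.15 in mutants. Its summed linear level ran from 11.7 to 16.75 in controls and from 14.12 to 16.38 in mutants. Pdgfra, a defining fibroblast marker, was in neither group well above background on all arrays. Endothelial markers moved the same way, with means of 0.34, -0.18 and -0.15 in controls and 0.14, 0.11 and 0.14 in mutants, and 11 of 14 lower within slide 1 and higher within slide 2. Their summed level ran from 41.94 to 53.08 in controls and from 48.56 to 49.73 in mutants, and none of them was called or had an unadjusted p under 0.05. Control A was also high for many immune and lymph node markers. Among 8 leukocyte and macrophage markers it was the highest of the 6 arrays for 5, and 5 were lower within slide 1 and higher within slide 2. Their mean was 0.49, -0.22 and -0.27 in controls and 0.05, -0.46 and -0.19 in mutants. Their summed level ran from 32.41 to 36.02 in controls and from 21.12 to 27.14 in mutants, so all controls lay above all mutants. That sum weighs the brightest markers most, Itgam (control mean 4.29) and Cd3e (3.25), and does not describe the 8 alike. The mutant arrays were all lower for Itgam and Cd3e, and Cd3e had an unadjusted limma p of 0.0061. Of the 8 markers, 2 had a higher mean in mutants, Ptprc by 0.17 and Adgre1 by 0.16, and both were dim (control means -3.69 and -2.67). Control A was the highest of the 6 arrays for all 4 tested markers of lymph node and fat, whose mean was 1.13, -0.35 and -0.78 in controls and -1.14, -0.79 and -0.80 in mutants. Their summed level was 4.71 in control A and between 1.11 and 2.17 on the other arrays, and Adipoq was not tested. None of these immune, lymph node and fat markers was called. The part of these cell types in the collagen values was not tested.

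**Figure D4:**
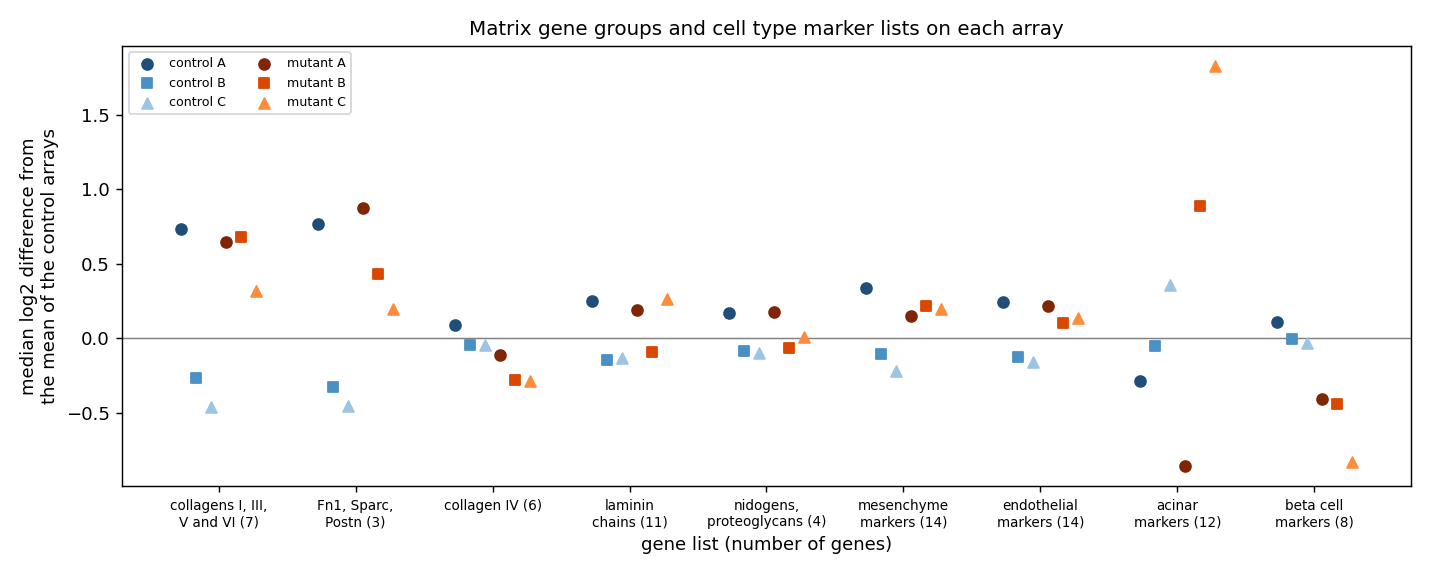
Median log2 difference from the mean of the 3 control arrays, for 5 groups of matrix genes and 4 lists of cell type markers, on each array; the number of genes tested is given in brackets. Control A lies on the side of the mutants, above controls B and C, for 7 chains of collagens I, III, V and VI. The same holds for Fn1, Sparc and Postn, and for mesenchyme and endothelial markers. The tested chains Col5a3 and Col6a6 are not among the 7. Collagen IV has a narrower range, and its median, like that of the beta cell markers, is lower on all mutant arrays.

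Collagen IV, the network-forming collagen of basement membranes, had all of its 6 chains tested, and 5 had a lower mean in mutants, with a median difference of -0.21 and none called. Col4a1 read 1.45, 1.33 and 1.41 in controls and 1.22, 0.95 and 0.80 in mutants. All mutant arrays were lower, with a difference of -0.41 (SE 0.14, limma adjusted p = 0.174) that was -0.57 within slide 1 and -0.15 within slide 2. Col4a2, its partner in the common heterotrimer, read 1.24, 0.83 and 0.88 in controls and 1.16, 0.92 and 0.72 in mutants. These groups overlapped, and the difference was -0.05 (SE 0.17). The start sites of these partner genes lie 21 bases apart on opposite strands of chromosome 8 (GRCm38.p6). Whether the differences of the partner genes differ from each other was not tested.

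The other chains of collagen IV form the networks of kidney, lung and some epithelia. Col4a4 read -2.80, -2.94 and -3.04 in controls and -3.09, -3.09 and -3.10 in mutants, a difference of -0.17 (SE 0.10) between groups that lay just apart. Col4a3 read -4.99, -4.92 and -4.83 in controls and -4.91, -5.85 and -6.03 in mutants. Mutant A lay among the controls and the other mutants lay below them, for a difference of -0.69 (SE 0.30, adjusted p = 0.273). Without mutant A, Col4a3 was called lower, at -1.03 (adjusted p = 0.0427). Its probe was well above background on 2 of the 3 mutant arrays. Col4a5 and Col4a6 differed by 0.01 (SE 0.15) and -0.25 (SE 0.32).

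The multiplexins are proteoglycan collagens of basement membranes. Col18a1, whose end fragment is endostatin, read -0.77, -1.41 and -1.01 in controls and -1.62, -1.75 and -1.17 in mutants. Mutants A and B were the lowest arrays, mutant C lay among the controls, and the difference was -0.45 (SE 0.23, adjusted p = 0.331). Its second tested probe differed by -0.36. Col15a1 read -4.84, -5.28 and -5.31 in controls and -5.40, -5.40 and -5.16 in mutants, a difference of -0.18 (SE 0.17). Its other tested probes gave 0.01 and -0.43, but each was well above background on 1 mutant array only.

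Laminins are trimers of an alpha, a beta and a gamma chain. All 11 chains on the array were tested, and none was called. The alpha chains of vessel walls, Lama4 and Lama5, differed by -0.28 (SE 0.21) and 0.12 (SE 0.17). Lama4 read -1.08, -1.47 and -1.43 in controls and -1.21, -1.77 and -1.83 in mutants, and Lama5 read 0.17, -0.27 and -0.22 in controls and 0.07, -0.20 and 0.15 in mutants. In both genes the groups overlapped, with control A the highest array. The beta and gamma chains shared by most vascular laminins had the smallest differences of the laminin chains. Lamb1 read 0.92, 0.45 and 0.42 in controls and 0.79, 0.48 and 0.60 in mutants. Lamb2 read -1.33, -1.91 and -1.94 in controls and -1.50, -1.92 and -1.89 in mutants. Control A was the highest array for both, and the groups overlapped. Lamc1 read 1.40, 1.13 and 1.07 in controls and 1.47, 1.24 and 1.03 in mutants. The differences were 0.02 (SE 0.18) for Lamb1, -0.04 (SE 0.21) for Lamb2 and 0.05 (SE 0.16) for Lamc1. Lama1 of early epithelia, Lama2 of muscle and nerve, and Lamc3 differed by 0.46 (SE 0.19), 0.21 (SE 0.20) and 0.27 (SE 0.25).

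Lama3 and Lamb3 encode chains of the epithelial laminin that anchors cells to the basement membrane. Lama3 read -1.74, -1.61 and -1.77 in controls and -1.87, -2.06 and -1.92 in mutants, a difference of -0.24 (SE 0.11, adjusted p = 0.284) with the mutants all lower, and its other tested probe gave -0.23. It was not called. Lamb3 read -2.94, -3.51 and -2.85 in controls and -4.08, -3.34 and -1.27 in mutants. Mutant C was far above every other array and mutant A was the lowest, so the mutant SD was 1.46. Col7a1, the anchoring fibril collagen that binds this laminin, also had its highest value in mutant C, with -2.24, -2.13 and -1.85 in controls and -2.05, -1.47 and -0.17 in mutants. Mutant C also had the highest acinar markers, whose mean was -0.28, -0.06 and 0.34 in controls and -0.80, 0.98 and 1.80 in mutants. The summed level of these 12 markers, all tested and none called or with an unadjusted p under 0.05, ran from 1115 to 1502 in controls and from 748.9 to 3674 in mutants. The 6 duct markers also had their highest mean in mutant C, with 0.34, -0.28 and -0.06 in controls and -0.12, 0.08 and 0.78 in mutants. Their median was 0.26, -0.21 and -0.02 in controls and -0.33, -0.32 and 0.25 in mutants, thus highest in control A. Of the 6, 4 had a lower mean in mutants, Krt19 by -1.10. Cftr was higher on all mutant arrays, by 3.12 (limma adjusted p = 0.0831, or 0.0157 with slide as a block). No duct marker was called in the main fit. The summed level of the duct markers ran from 4.85 to 5.63 in controls and from 4.80 to 6.36 in mutants. The part of acinar and duct cells in the Lamb3 and Col7a1 values was not tested.

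The nidogens link laminin to collagen IV. Nid1 read 0.54, 0.02 and 0.04 in controls and 0.48, 0.44 and 0.53 in mutants, with control A the highest array and a difference of 0.28 (SE 0.16, adjusted p = 0.396). Another tested probe, well above background on all arrays, gave -0.04, and the remaining probe was well above background on no mutant array. Nid2 read -1.17, -1.45 and -1.31 in controls and -0.82, -1.31 and -1.49 in mutants, a difference of 0.10 (SE 0.20). Hspg2, which encodes perlecan, read 0.82, 0.99 and 0.85 in controls and 0.97, 0.37 and 0.68 in mutants. Mutants B and C were the lowest arrays, mutant A lay among the controls, and the difference was -0.22 (SE 0.17). The other tested Hspg2 probe, dimmer but well above background on all arrays, differed by -0.48. It read -4.45, -4.36 and -4.32 in controls and -4.66, -5.00 and -4.91 in mutants, with all mutant arrays lower. Agrn, which encodes agrin, read 1.94, 1.71 and 1.55 in controls and 1.68, 1.61 and 1.93 in mutants, for a difference of 0.01 (SE 0.15). Its other tested probe gave -0.61 and was well above background on 1 mutant array.

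The remaining collagens sit on fibril surfaces or span membranes, or are of less certain place. Col28a1, a collagen of peripheral nerve, read -6.26, -5.79 and -6.30 in controls and -5.72, -5.25 and -5.67 in mutants. Its mutant arrays were all higher, by 0.57 (SE 0.20, adjusted p = 0.197); control B lay close below the lowest of them. The 5 Schwann cell markers tested, cells that surround such nerves, summed to between 0.84 and 1.10 in controls and between 1.05 and 1.19 in mutants, with 0 of 5 called or at an unadjusted p under 0.05, and Cdh19 was not tested. The 5 collagens on fibril surfaces had differences from -0.20 to 0.36, and the 3 membrane collagens from -0.48 (Col23a1) to 0.16. None of these 8 was called.

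For 4 of the 49, Col8a1, Col4a3, Col23a1 and Col25a1, the probe was well above background on all controls but not on all mutants, so these could only be tested through the controls. Not tested were 9 members. Col10a1, Col11a1, Col17a1, Col19a1, Col22a1, Col24a1, Col2a1 and Col9a3 were well above background on none of the arrays, and Col12a1 on 2 control arrays and 1 mutant array. Several of these are cartilage collagens.

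Genes that make, bind or accompany the matrix were counted from 3 lists. Of 26 tested genes for collagen synthesis and crosslinking, 0 were called and 7 (26.9%) had an unadjusted p under 0.05, against 20.2% of all genes. The smallest p values there belonged to Pcolce2, an enhancer of procollagen cleavage, which differed by 1.27 (SE 0.32, adjusted p = 0.102), and Plod2, a lysyl hydroxylase that sets the type of collagen crosslink, which differed by 0.76 (SE 0.19, adjusted p = 0.102). Of 24 tested matrix receptors, 1 was called and 5 (20.8%) had an unadjusted p under 0.05. Sdc3, a heparan sulfate syndecan of the cell surface, fell by 1.08 (SE 0.18, adjusted p = 0.0460), but the adjusted p reached 0.0692 under a slide block and lay between 0.0739 and 0.155 when any 1 array was left out. Of 37 tested other basement membrane and linker proteins, 2 were called and 12 (32.4%) had an unadjusted p under 0.05. With slide as a block, 3 of these 37 were called.

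Smoc1 encodes a calcium-binding basement membrane glycoprotein related to SPARC. It read -1.74, -1.88 and -1.93 in controls and -0.08, 0.00 and -0.19 in mutants. The groups were far apart, and Smoc1 rose by 1.76 (SE 0.11, limma adjusted p = 0.00601). The slides gave 1.65 and 1.82. Without control B its adjusted p was 0.0566. Spock1 encodes testican, a secreted proteoglycan of the SPARC family. It read -1.68, -0.87 and -0.42 in controls and -2.94, -3.72 and -3.60 in mutants. All mutant arrays lay lower, and Spock1 fell by 2.43 (SE 0.37, adjusted p = 0.0382). Its call was kept without control A and lost when any other array was left out, with adjusted p values of 0.0570 to 0.145. These SPARC relatives were thus called in opposite directions, while Sparc itself was not called. The 3 called genes are 3.45% of the 87 tested on these lists, against 2.53% of all genes.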

How the data were processed

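RNA of 6 islet samples, labelled with Cy3 from 150 ng each, was read on 1-colour Agilent arrays. Per the submitters' processing notes, Feature Extraction 10.7.3.1 was used. The deposited scanner files hold linear intensity values that the software had corrected for background, not scaled between arrays, and other values, namely flags per spot. A further deposited set of linear intensity values equalized by the authors was an alternative; how it was equalized is not given in the sources used here. Its column medians were 266.95 to 274.55.

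Background-corrected log2 intensity, computed from the deposited values, was averaged for each probe, and each array's 75th percentile over non-control spots was subtracted. A probe was tested if well above background on all arrays of at least 1 group, and the brightest tested probe represented its gene name. Mutants were set against controls by limma 3.58.1, run in R 4.3.3 (lmFit and eBayes, two-sided, Benjamini-Hochberg adjustment over 22775 genes; called under 0.05), with data.table (1.17.8) for reading. The fit was tested on simulated data. Probe positions are those of the files (mm9).

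The members and lists were chosen with earlier results of these data known. Values on every array are given for called members, for members whose arrays lie apart (1 of them is not reported here) and for a preset list of matrix genes; Col4a3, Col8a1, Col7a1, Lamb3 and the disagreeing probes were added after their values were seen. Of each other list, up to 4 called genes, or the 2 with the smallest p where none was called, were named. Samples A to C in both groups share letters, but no label ties a letter to a litter, so the letters were not used to pair arrays in the main fit. Deviations of same-letter arrays correlated at -0.232, -0.187 and -0.0305, but all of these pairs lay on different slides. Pairs with different letters gave -0.0989 and -0.119 across slides and 0.0841 to 0.233 within a slide. The correlations therefore cannot tell whether the letters mark pairs. Alternatives were normexp with offset 50, quantile and median scaling, the equalized values, other filters, slide or replicate as a block, a variance trend, the mean of a gene's probes, a threshold of 0.1 and leaving out arrays. The number of arrays limits the precision, and p-values measure only the spread between these pools.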

Additional observations from a re-analysis of the deposited data

How the results depend on the processing

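The member count of 2 became 1 with no filter on dim probes (Col8a2), 0 with the replicate block, 0 without mutants A and B, and 0 to 2 when 1 array was left out. Leaving out mutants A and B, whose lowest signals were above those of the other arrays, was chosen after seeing the data. Col8a2 had an adjusted p of 0.0772 with the replicate block, under which 0 genes in all were called by limma (3163 at an unadjusted p under 0.05). Col11a2 had an adjusted p of 0.0554 with no filter. Under the other settings the members called were Col8a2 and Col11a2, and the members' median difference lay between 0.11 and 0.29. The count of 3 related genes became 4 with normexp, 2 with median scaling and with the mean of a gene's probes, 6 with the equalized values, 1 with no filter, 5 with probes well above background on all 6 arrays, 0 with the replicate block, 7 with a variance trend, 9 at the 0.1 threshold, 0 without mutants A and B, and 0 to 2 when 1 array was left out.

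Of 570 comparisons for 30 named members, 525 kept direction and stayed called or uncalled, 13 lost and 1 gained a call, and 31 turned direction. The cause was not tested. Only Col8a2 and Col11a2 had a call to lose, and they lost it in 4 and 9 of 19 settings. With normexp, Col15a1 was 0.028, Lamb2 0.022, Lamb1 -0.062 and Agrn -0.0061. With quantile scaling Agrn was -0.016. With the equalized values, Lamb2 was 0.034, Lamb1 -0.057 and Agrn -0.0030. With slide as a block, Lamb1 was -0.016 and Agrn -0.060. With the mean of a gene's probes, Nid1 was -0.26 and Agrn -0.30. Without mutants A and B, Nid2 was -0.18, Lamc1 -0.16 and Lamb1 -0.0021. With 1 array left out, Agrn ranged from -0.089 to 0.11, Lamb1 from -0.067 to 0.18, Lamb2 from -0.18 to 0.15, Col4a2 from -0.17 to 0.076, Lamc1 from -0.061 to 0.16, Nid2 from -0.093 to 0.24 and Fn1 from -0.10 to 0.61. None of these members was called under any setting that turned it.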
